A study of Mus musculus with 8 samples.

Results

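The acute phase proteins examined here were 8 genes, Saa3, Lcn2, Lbp, Hpx, Ptx3, Hp, Orm1 and Orm2. They were chosen by symbol, with earlier results of these data known, out of the 18194 genes that the array annotation could name. They were measured in 3T3-L1 cells, mouse fibroblasts that turn into fat cells in culture and were then made insulin resistant in 3 ways. The TNF model exposed the cells to tumour necrosis factor, an inflammatory cytokine (3 arrays), the Dex model to the synthetic glucocorticoid dexamethasone (3 arrays), and the CI model to chronic insulin (2 arrays). The antioxidant MnTBAP, which enters cells, was present in all 3 models over the last 6 hours of treatment. No untreated cells and no arrays without MnTBAP were analysed here, so a rise or a fall is relative to the other model named and never to untreated cells. All 8 arrays came from 1 cell line. The labels do not say whether the arrays of a model stand for separate cultures, and p-values then reflect no more than the spread of these arrays, which may be technical.

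The acute phase response is the switch in secreted plasma proteins that follows infection or injury. It is best known in the liver, where interleukin-6 acts through STAT3 and C/EBP factors, interleukin-1 and TNF act through NF-kB, and glucocorticoids often enhance the effect of the cytokines. Fat cells also secrete many of these proteins, among them serum amyloid A3, lipocalin-2, haptoglobin and the orosomucoids. In this set, Saa3 is the serum amyloid A apolipoprotein made largely outside the liver in mice. Lcn2 withholds iron from bacteria by binding their siderophores, Lbp passes bacterial lipopolysaccharide to CD14 and the TLR4 receptor, and Ptx3 is a long pentraxin that binds microbes and complement. Hp captures free haemoglobin and Hpx free haem, while Orm1 and Orm2 are plasma lipocalins that carry small lipophilic molecules.

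Values are log2 probe set intensities, each gene being read by the probe set of that symbol with the highest mean. Probe sets differ in sensitivity, so the levels of a gene are compared between arrays. Sums over markers and remarks on bright or dim genes describe probe set intensity and are at most a rough guide to RNA amounts. Bright probe sets weigh most in such sums. A gene was called changed when its adjusted p was under 0.05 in limma's moderated test over all genes and its log2 difference was over 0.5. Differences are given ± the standard error (SE) from the fit. A difference in the RNA of a culture can reflect more RNA per cell or more cells that make it, and these arrays cannot tell those apart. Median intensities lay between 124.7 and 131 on the 8 arrays. Pearson's r over all probe sets was 0.9958 to 0.9978 within models and 0.9856 to 0.9911 between models. The largest intensities were 22432.5 to 24273.6, and Hp in TNF and Dex and Saa3 in TNF came close to them, where differences can be compressed.

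The adipocyte identity of the arrays was checked first, because one label describes every sample as preadipocytes whereas the others call them adipocytes. The adipocyte genes Adipoq and Fabp4 averaged 14.31 and 14.40 in TNF, 14.37 and 14.44 in Dex, and 14.36 and 14.39 in CI. Their intensities of 20253.7 to 22438.7 were close to the largest on the arrays, so they show that both transcripts were abundant but cannot show whether their levels differed between models. Of 7 measured adipocyte markers, Cidec, Pparg and Slc2a4 fell in TNF against CI, where 5.23% of all genes were called lower. The last pair also fell in Dex against CI (5.67% of all genes). Cidec was also lower in TNF than in Dex (-0.91 ± 0.07), where 3.16% of all genes were called lower. The summed intensity of these 7, most of it from Adipoq, Fabp4 and the similarly bright Lpl, was 85200 to 87190 in TNF, 93560 to 97640 in Dex and 99880 to 100300 in CI. The preadipocyte marker Dlk1 was also well represented, at 13.03 in TNF, 12.20 in Dex and 12.91 in CI. The sum of 5 preadipocyte and fibroblast markers came mostly from Dlk1. This sum was 13680 to 16510 in TNF, 7767 to 9287 in Dex and 12150 to 12230 in CI. Of these 5, Pdgfrb rose in TNF against CI by 0.93 ± 0.14, where 3.00% of all genes were called higher. Dlk1 fell in Dex against CI (-0.70 ± 0.10), where 5.67% were called lower. Thy1 was below CI in every TNF array (-0.29 ± 0.07) and every Dex array (-0.42 ± 0.07), short of the size threshold. In TNF against Dex 3 of the 5 were called higher, as were 4.14% of all genes. These were Pdgfrb by 1.34 ± 0.13, Dlk1 by 0.83 ± 0.09 and Pdgfra by 0.72 ± 0.22. For Pdgfra the TNF and Dex arrays overlapped (limma adjusted p = 0.0409). The share of adipocytes in a culture was not measured, and its part in the results below was not tested.

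In TNF against CI all 8 acute phase genes changed, 6 upward and 2 downward, where 3.00% of all genes were called higher and 5.23% lower. The 8 were chosen with earlier results of these data known, so such counts are no test of the group. After quantile normalization of the arrays the split over all genes was 634 higher and 724 lower, against 545 and 951 with the values as given, and the acute phase counts were the same. The median difference of the 8 was 1.91 on the log2 scale, beside 0.03 for all genes. In Dex against CI 5 of the 8 changed, 1 upward and 4 downward, where 3.33% of all genes were called higher and 5.67% lower, and the median was -0.42, beside 0.02 for all genes. In TNF against Dex 5 changed, all upward, where 4.14% of all genes were called higher and 3.16% lower, and the median was 2.09, beside 0.01 for all genes. The 6 genes that rose and the 2 that fell in TNF against CI had no overlap between the arrays of these models, as 28.3% of all genes had upward and 24.7% downward. In Dex against CI, Hp and Lbp lay wholly above CI (24.9% of all genes) and Hpx, Ptx3, Orm1 and Orm2 wholly below it (23.1%). In TNF against Dex the 5 called genes lay wholly above Dex (18.0%) and none wholly below it (17.9%). The comparisons of TNF and of Dex with CI rest on the same CI arrays, so their values are given side by side and are not independent.

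The genes fell into 3 patterns. Saa3, Lcn2, Lbp, Hpx and Ptx3 were called higher in TNF than in both Dex and CI, a pattern of 256 genes, or 1.41% of all. Hp was called lower in CI than in both TNF and Dex (169 genes, 0.929%). Orm1 and Orm2 were called higher in CI than in both TNF and Dex (485 genes, 2.67%). Within the first pattern, Hpx and Ptx3 were also lower in Dex than in CI, so that Dex stood below both of the other models, as it did for 376 genes (2.07%). None of the 8 was called lower in TNF than in both other models (0.813% of all genes) or higher in Dex than in both (1.59%).

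**Figure D1:**
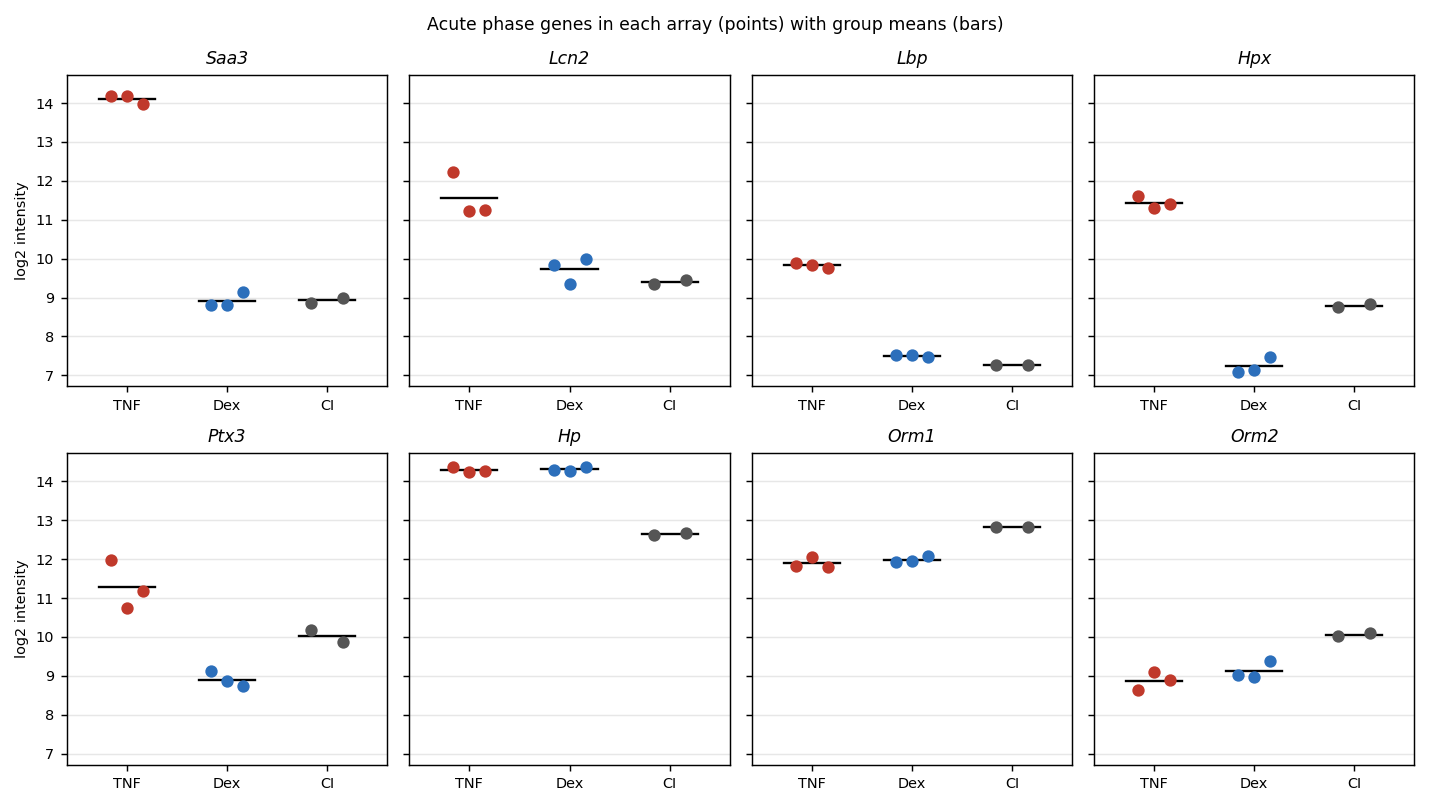
Log2 probe set intensity (vertical axis) of the 8 acute phase genes in each array, 1 panel per gene, with a point for each of 3 TNF, 3 Dex and 2 CI arrays and bars for the means of the models. Saa3, Lcn2, Lbp, Hpx and Ptx3 were highest in every TNF array, Hp was lowest in both CI arrays, and Orm1 and Orm2 were highest in both CI arrays.

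The sequences before the start sites are shown for the members with an entry in RefSeq's promoter table (mouse build GRCm38.p6), which were 5 of the 8, so that genes that moved alike can be read beside one that moved the other way. Each line gives the 250 bases before the start, 5′ to 3′ on the gene's own strand, for Saa3 at chr7:46715677-46715926 on the minus strand, Lcn2 at chr2:32387740-32387989 on the minus strand, Hpx at chr7:105600117-105600366 on the minus strand, Ptx3 at chr3:66219637-66219886 on the plus strand and Orm2 at chr4:63362199-63362448 on the plus strand. Hp, Lbp and Orm1 lie on chromosomes 8, 2 and 4. Capitals mark every match to 5 consensus words searched on both strands.
Saa3: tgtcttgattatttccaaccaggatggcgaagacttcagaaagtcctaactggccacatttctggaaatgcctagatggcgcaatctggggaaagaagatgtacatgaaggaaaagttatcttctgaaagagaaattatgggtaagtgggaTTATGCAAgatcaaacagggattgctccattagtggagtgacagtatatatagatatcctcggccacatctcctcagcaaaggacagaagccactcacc
Lcn2: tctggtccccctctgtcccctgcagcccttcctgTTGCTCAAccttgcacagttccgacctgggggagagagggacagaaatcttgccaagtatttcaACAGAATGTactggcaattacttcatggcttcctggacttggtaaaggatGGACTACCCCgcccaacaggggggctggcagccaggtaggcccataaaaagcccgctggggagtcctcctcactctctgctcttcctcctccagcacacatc
Hpx: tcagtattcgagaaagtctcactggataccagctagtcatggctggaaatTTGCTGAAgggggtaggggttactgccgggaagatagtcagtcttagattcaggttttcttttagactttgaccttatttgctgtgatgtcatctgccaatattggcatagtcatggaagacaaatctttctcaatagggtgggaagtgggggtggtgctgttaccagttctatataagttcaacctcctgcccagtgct
Ptx3: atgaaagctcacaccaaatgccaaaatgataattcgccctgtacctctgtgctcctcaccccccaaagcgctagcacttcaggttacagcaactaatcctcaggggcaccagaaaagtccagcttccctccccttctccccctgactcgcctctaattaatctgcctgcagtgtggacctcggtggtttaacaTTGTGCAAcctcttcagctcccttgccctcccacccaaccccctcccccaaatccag
Orm2: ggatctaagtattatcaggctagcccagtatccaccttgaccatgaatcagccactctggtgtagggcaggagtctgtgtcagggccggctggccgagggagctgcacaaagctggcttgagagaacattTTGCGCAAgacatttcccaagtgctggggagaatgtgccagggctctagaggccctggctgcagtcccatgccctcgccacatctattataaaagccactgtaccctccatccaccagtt
Each of the 5 windows held the C/EBP word TTNNGCAA, which 9.56% of 32851 promoters of this length held. It was TTATGCAA in Saa3, 99 to 92 bases before the start, and TTGTGCAA in Ptx3, 57 to 50 bases before it. In Lcn2 and Hpx the match was on the opposite strand, written as TTGCTCAA 216 to 209 bases and as TTGCTGAA 200 to 193 bases before the start. In Orm2 it was TTGCGCAA, a palindrome and so a match on both strands, 120 to 113 bases before the start. Lcn2 alone held the NF-kB word GGG then NNNNN then CC, as GGACTACCCC on the opposite strand 102 to 93 bases before the start (45.8% of all promoters), and the glucocorticoid word ACANNNTGT, as ACAGAATGT 152 to 144 bases before it (5.84%). The STAT word TTCNNNGAA (7.02%) and the hexamer CTGGGA (27% of promoters) had no match in these windows. No 2 of the matched words overlapped. The C/EBP word was present both in the TNF-high genes and in Orm2, which was highest in CI, and a match describes letters only.

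Saa3 had the widest separation between models of the 8 genes. Its log2 intensities were 14.18, 14.18 and 13.98 in TNF, 8.82, 8.81 and 9.14 in Dex, and 8.86 and 8.99 in CI. Every TNF array lay far above all others, and the Dex arrays overlapped the CI arrays. The difference was 5.19 ± 0.11 between TNF and CI, a 36.4-fold higher intensity (limma adjusted p = 2.42e-10), and 5.19 ± 0.10 between TNF and Dex (36.5-fold, limma adjusted p = 5.2e-11). Dex and CI differed by -0.004 (95% interval -0.25 to 0.24, limma adjusted p = 0.987), an interval that leaves out any change past the 0.5 threshold.

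The other serum amyloid A genes, which lie next to Saa3 on chromosome 7, were not called in any comparison with the brightest probe sets. Saa1, whose product circulates from the liver in the acute phase, averaged 5.78 in TNF, 5.33 in Dex and 5.36 in CI. Its difference of 0.42 ± 0.08 between TNF and CI passed the p threshold (limma adjusted p = 0.00376) but not that of size, whereas the Saa1 probe set with the largest SD over the arrays gave 0.52 and was called (limma adjusted p = 0.00683). Saa2 differed by 0.02 and Saa4 by 0.01 between TNF and CI, with limma adjusted p of 0.9 and 0.967. Saa1 and Saa2 are close paralogues, so their probe sets may share signal.

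Lbp was likewise highest in TNF and varied little between arrays of a model. Its values were 9.90, 9.85 and 9.76 in TNF, 7.53, 7.52 and 7.46 in Dex, and 7.25 and 7.27 in CI. TNF exceeded CI by 2.57 ± 0.07 (5.95-fold, limma adjusted p = 3.14e-09) and Dex by 2.33 ± 0.07 (5.03-fold, limma adjusted p = 1.18e-09). All 3 Dex arrays lay above both CI arrays, but the difference of 0.24 ± 0.07 was below the size threshold (limma adjusted p = 0.0353). Lbp had a further probe set, which read 7.24 in TNF, 6.89 in Dex and 6.98 in CI on average. Between TNF and CI it differed in the same direction by 0.26 ± 0.08, below the size threshold. Between Dex and CI it differed by -0.10 ± 0.08, of opposite sign and not called (limma adjusted p = 0.468). The mean of both Lbp probe sets gave 1.42 for TNF against CI and 1.34 for TNF against Dex, still called.

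Lcn2 rose in TNF with more scatter between arrays. Its values were 12.23, 11.24 and 11.24 in TNF, 9.83, 9.35 and 9.99 in Dex, and 9.34 and 9.45 in CI. TNF replicate 1 stood 0.66 above the TNF mean, yet the lowest TNF array was still above every Dex and CI array. TNF exceeded CI by 2.17 ± 0.26 (4.52-fold, limma adjusted p = 0.000208) and Dex by 1.85 ± 0.24 (3.6-fold, limma adjusted p = 0.000196). The difference of 0.33 between Dex and CI had a 95% interval of -0.25 to 0.91, so a rise past the threshold could not be told from none (limma adjusted p = 0.44).

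Hpx separated all 3 models. Its values were 11.62, 11.30 and 11.39 in TNF, 7.08, 7.14 and 7.47 in Dex, and 8.76 and 8.83 in CI. No model overlapped another, with TNF highest and Dex lowest. TNF exceeded CI by 2.65 ± 0.12 (6.26-fold, limma adjusted p = 2.69e-07), and Dex was below CI by 1.56 on the log2 scale, a difference of -1.56 ± 0.12 and 2.96-fold lower (limma adjusted p = 5.2e-06). Between TNF and Dex the gap was 4.21 ± 0.11, or 18.5-fold (limma adjusted p = 7.57e-10).

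Ptx3 had the same order as Hpx and the widest scatter of the 8 genes among TNF arrays. Its values were 11.97, 10.73 and 11.18 in TNF, 9.11, 8.86 and 8.74 in Dex, and 10.17 and 9.86 in CI. The models did not overlap, although the TNF arrays spanned 1.24 on the log2 scale. TNF exceeded CI by 1.28 ± 0.27 (2.42-fold, limma adjusted p = 0.00581) and Dex by 2.39 ± 0.24 (5.24-fold, limma adjusted p = 3.25e-05), and Dex differed from CI by -1.11 ± 0.27 (2.16-fold lower, limma adjusted p = 0.0115). The calls against CI depended on single arrays. The rise in TNF was not called without CI replicate 2 (1.12, limma adjusted p = 0.0719), and the fall in Dex was not called without CI replicate 1 (-0.96, limma adjusted p = 0.107) or with limma's trend and robust settings (limma adjusted p = 0.0632). The other Ptx3 probe set averaged 7.20 in TNF, 6.89 in Dex and 7.31 in CI, so that its difference between TNF and CI was -0.11 ± 0.09 and of opposite sign, without passing the test (limma adjusted p = 0.441). The mean of both probe sets gave 0.58 for TNF against CI and 1.35 for TNF against Dex, both called.

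Hp, in contrast, was high in both TNF and Dex. Its values were 14.36, 14.23 and 14.28 in TNF, 14.30, 14.26 and 14.37 in Dex, and 12.63 and 12.67 in CI. TNF and Dex arrays were interleaved, and both lay above the CI arrays. TNF exceeded CI by 1.64 ± 0.07 (3.12-fold, limma adjusted p = 2.61e-07), and Dex exceeded CI by 1.66 ± 0.07 (3.17-fold, limma adjusted p = 9.63e-08). TNF and Dex differed by -0.02, with a 95% interval of -0.17 to 0.12 (limma adjusted p = 0.863). Their intensities of 19199.7 to 21159.2 were close to the largest on the arrays, so that a difference between these models could be compressed, whereas CI read 6335.3 and 6512.1.

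The orosomucoid genes moved the other way. Orm1 read 11.81, 12.06 and 11.80 in TNF, 11.92, 11.95 and 12.09 in Dex, and 12.82 and 12.83 in CI. Orm2 read 8.62, 9.11 and 8.88 in TNF, 9.01, 8.97 and 9.38 in Dex, and 10.02 and 10.11 in CI. For both genes CI was above every other array, and TNF and Dex overlapped. Orm1 differed by -0.94 ± 0.09 in TNF against CI and by -0.84 ± 0.09 in Dex against CI (1.91-fold and 1.79-fold lower, limma adjusted p = 5.94e-05 and 7.7e-05). Orm2 differed by -1.19 ± 0.14 in TNF against CI and by -0.94 ± 0.14 in Dex against CI (2.28-fold and 1.92-fold lower, limma adjusted p = 0.000212 and 0.000715). Between TNF and Dex the 95% interval was -0.28 to 0.09 for Orm1, which leaves out a change past the threshold, and -0.53 to 0.04 for Orm2, which does not.

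Orm3, which lies between Orm1 and Orm2 on chromosome 4 in the RefSeq gene order, had a different pattern. Its values were 9.16, 9.56 and 9.30 in TNF, 10.52, 10.79 and 10.72 in Dex, and 9.39 and 9.44 in CI. Dex was above every other array, by 1.26 ± 0.12 over CI (limma adjusted p = 1.73e-05), whereas TNF differed from CI by -0.07 ± 0.12 (limma adjusted p = 0.686). TNF was below Dex, a difference of -1.34 ± 0.10 (limma adjusted p = 5.08e-06). The orosomucoid genes are related copies, so cross-hybridisation between their probe sets may blur each of these values, which was not checked.

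**Figure D2:**
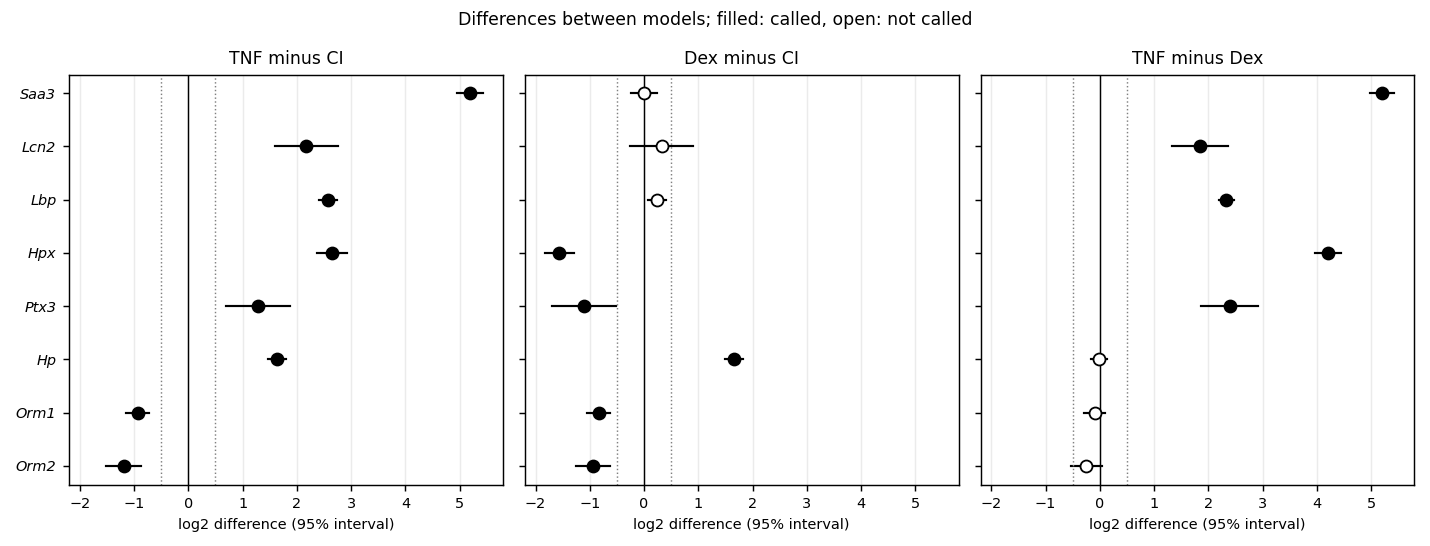
Log2 differences (horizontal axis) of the 8 acute phase genes in 3 panels, TNF and Dex each against CI and then TNF against Dex, with 95% intervals of the fit. Filled points were called and open points were not, and dotted lines stand at 0.5 on either side of 0. All 8 were called in TNF against CI, whereas Saa3, Lcn2 and Lbp were not called in Dex against CI and Hp, Orm1 and Orm2 were not called in TNF against Dex.

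The spread within a model was next compared between genes. Among TNF arrays the SD of Ptx3 exceeded that of 99.9% of all genes and the SD of Lcn2 that of 99.8%, while Lbp and Hp had SDs above those of 39.6% and 38.3%. Among Dex arrays Lcn2 again ranked high, above 99.3% of genes. TNF replicate 1 was the highest TNF array for 6 of the 8 genes, all but Orm1 and Orm2, where it was the highest for 34.5% of all genes. Dex replicate 3 was the highest Dex array for 6 of the 8, all but Lbp and Ptx3, where it was the highest for 37.4% of all genes.

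These arrays were compared on a measure of RNA quality, the 3′ minus 5′ log2 difference of the beta-actin control probe sets. It was 0.74, 0.71 and 0.83 in TNF, 0.49, 0.49 and 0.75 in Dex, and 0.66 and 0.54 in CI. Dex replicate 3 thus stood apart from the other Dex arrays, and TNF replicate 1 did not stand apart from the other TNF arrays. With this measure as a covariate, the 8, 5 and 5 acute phase calls of TNF against CI, Dex against CI and TNF against Dex were the same in number, and Saa3 differed by 5.09 and Hpx by 2.49 between TNF and CI.

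**Figure D3:**
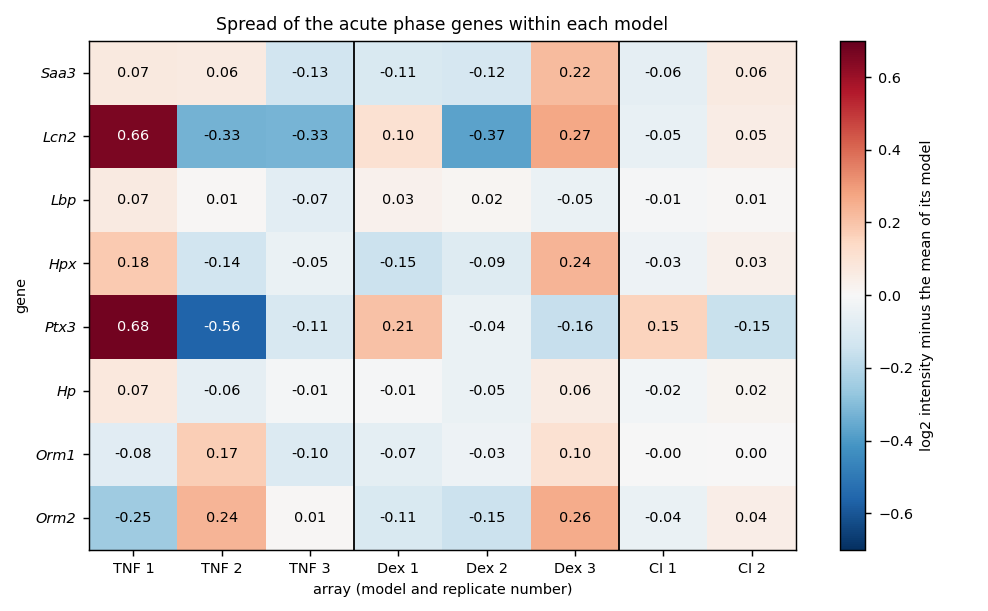
Log2 intensity minus the mean of its own model (colour and printed value) for the 8 acute phase genes (rows) in each array (columns, 3 TNF, 3 Dex and 2 CI arrays by replicate number). TNF replicate 1 read 0.66 above its model's mean for Lcn2 and 0.68 above it for Ptx3, while the Hp and Lbp values stayed close to the mean in all arrays.

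Each acute phase gene was then set beside the genes whose log2 values followed it most closely over the 8 arrays, by Pearson's r among genes with an SD of at least 0.5, as a description that mostly reads the differences between the models. Saa3 was closest to Cpe (carboxypeptidase E, r = 0.9965), the chemokine Ccl8 (r = 0.9963) and Lbp itself (r = 0.9952). Lbp was also closest to C1s1, a complement protease (r = 0.9952). Hpx was closest to Lhfp (r = 0.9958), the metalloproteinase inhibitor Timp1 (r = 0.9954) and the chemokine Cxcl9 (r = 0.9949), whose differences from CI were positive in TNF and negative in Dex, as for Hpx. Lcn2 was closest to the Toll-like receptor Tlr2 (r = 0.9899) and the growth factor Csf1 (r = 0.9767), and Ptx3 to the inflammatory caspase Casp4 (r = 0.989) and the oncostatin M receptor Osmr (r = 0.9869). Hp was closest to Porcn, which acylates Wnt proteins (r = 0.9928), and to the proteoglycan Vcan (r = 0.9771). Orm1 was closest to Klf15 (r = 0.9872) and to Hsd11b1, the enzyme that regenerates active glucocorticoid (r = 0.9855), and Orm2 to Lypd6b (r = 0.9937).

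Further genes of the acute phase were read from a list of 29, of which 23 were measured here. In TNF against CI 3 of the 23 rose and none fell, where 3.00% of all genes were called higher and 5.23% lower. In Dex against CI 7 rose and 1 fell (3.33% and 5.67% of all genes), and in TNF against Dex 2 were higher and 5 lower (4.14% and 3.16%). The medians were 0.07, 0.11 and -0.01 on the log2 scale. The medians of all genes were 0.03, 0.02 and 0.01. The called genes were 13.0%, 34.8% and 30.4% of the 23. Saa1, Saa2, Fga, Fgb, Fgg, Apcs, Crp, A2m, Itih3 and Rbp4 averaged 4.51 to 6.23 in CI. This was below the lower quartile of all genes on the CI arrays, 6.45 and 6.40. None of these dim genes was called, so the shares also depend on how many listed genes read low.

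Ceruloplasmin (Cp), a copper-carrying ferroxidase, was highest in TNF and intermediate in Dex. It read 12.82, 12.42 and 12.61 in TNF, 12.15, 11.94 and 11.84 in Dex, and 11.06 and 11.03 in CI, and no model overlapped another. It exceeded CI by 1.57 ± 0.12 in TNF (limma adjusted p = 8.16e-06) and by 0.93 ± 0.12 in Dex (limma adjusted p = 0.00019). TNF exceeded Dex by 0.64 ± 0.11 (limma adjusted p = 0.0012), a call lost with the mean of all Cp probe sets (0.43, limma adjusted p = 0.0103) and with the probe set of largest SD (0.66, limma adjusted p = 0.0546). The inter-alpha-trypsin inhibitor chain Itih4 rose by 0.66 in TNF and 0.65 in Dex, each ± 0.09. The metal-binding protein gene Mt1 rose by 0.57 ± 0.09 in TNF and by 1.49 ± 0.09 in Dex. Its difference in TNF was below the size threshold without CI replicate 1 (0.47). The same held with the mean of all Mt1 probe sets (0.32, limma adjusted p = 0.0305).

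Several of these genes were highest in Dex. Agt, which encodes angiotensinogen, read 13.84, 13.90 and 13.90 in Dex against 11.72 and 11.62 in CI, a rise of 2.21 ± 0.09 (limma adjusted p = 5.15e-08). In TNF it read 11.35, 11.63 and 11.45, below Dex by 2.40 on average and not called against CI (-0.20 ± 0.09, limma adjusted p = 0.142). Mt2 rose by 1.75 ± 0.12 and the serpin Serpina3n by 0.59 ± 0.09 in Dex against CI, the call on Serpina3n being lost on size without CI replicate 2 (0.49, limma adjusted p = 0.0126). In TNF against CI Serpina3n differed by 0.02 ± 0.09 (limma adjusted p = 0.869). The metalloreductase gene Steap4 fell in Dex against CI (-0.79 ± 0.18, limma adjusted p = 0.00791), though not without CI replicate 2 (-0.77, limma adjusted p = 0.0647). Of 4 measured genes whose plasma proteins fall in the hepatic acute phase, Ttr, Ahsg, Apoa1 and Rbp4, limma called 0 in any comparison. An unadjusted limma p under 0.05 was found for 0, 1 and 1 in TNF against CI, Dex against CI and TNF against Dex. In CI, Ahsg, Apoa1 and Rbp4 averaged 6.60, 7.30 and 5.77 and Ttr 8.59, where the median gene read 7.89 to 7.93 on the arrays. A fall from such low intensities may not register, so a steady level was not shown.

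The cytokines, receptors and transcription factors upstream of these genes, and their receptors and partners, formed a list of 30, of which 29 were measured. In TNF against CI 10 rose and 1 fell, where 3.00% of all genes were called higher and 5.23% lower. In Dex against CI 6 rose and 4 fell (3.33% and 5.67% of all genes), and in TNF against Dex 8 were higher and 1 lower (4.14% and 3.16%). The medians of the 29 were 0.14, 0.05 and 0.08, beside 0.03, 0.02 and 0.01 for all genes. Among cytokine receptors of the interleukin-6 family, Osmr rose by 1.22 ± 0.19, Lifr by 0.91 ± 0.13 and the shared subunit Il6st by 0.69 ± 0.15 in TNF against CI, the call on Il6st being lost without CI replicate 2 (0.66, limma adjusted p = 0.0598). Osmr fell in Dex against CI (-0.76 ± 0.19, limma adjusted p = 0.014), and the difference was about as large, though not called, without CI replicate 1 (-0.76, limma adjusted p = 0.0808), CI replicate 2 (-0.76, limma adjusted p = 0.0825) or Dex replicate 2 (-0.72, limma adjusted p = 0.0519). The specific subunit Il6ra differed by 0.05 ± 0.08 in TNF and 0.37 ± 0.08 in Dex against CI, neither called. The rise of Il6ra in Dex was called with the mean of all its probe sets (0.58, limma adjusted p = 0.00397) and with the one of largest SD (0.78, limma adjusted p = 0.00658).

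Il6 itself, the main inducer of the hepatic response, was lowest in Dex. It read 8.21, 7.10 and 7.18 in TNF, 5.47, 5.42 and 5.58 in Dex, and 7.47 and 7.63 in CI. TNF overlapped CI, with a difference of -0.05 ± 0.25 (limma adjusted p = 0.899), whereas Dex was below CI in every array (-2.06 ± 0.25, limma adjusted p = 0.000136). Tnfaip6, whose product binds pentraxin 3, was also lowest in Dex, at 8.63, 7.96 and 8.18 in TNF, 5.77, 5.84 and 5.81 in Dex, and 8.46 and 8.37 in CI. It fell in Dex against CI (-2.61 ± 0.15, limma adjusted p = 4.7e-07) and was not called in TNF against CI (-0.15 ± 0.15, limma adjusted p = 0.494).

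Among the transcription factors, Cebpd, which encodes C/EBP-delta, read 10.73, 10.11 and 10.31 in TNF, 12.29, 12.19 and 11.92 in Dex, and 9.62 and 9.87 in CI. All 3 models were separate, with Dex highest. It exceeded CI by 2.40 ± 0.17 in Dex (limma adjusted p = 1.84e-06) and by 0.64 ± 0.17 in TNF (limma adjusted p = 0.0172), the smaller of which was no longer called without CI replicate 1 (0.51, limma adjusted p = 0.136) or TNF replicate 1 (0.46, limma adjusted p = 0.0266). Cebpb rose by 0.66 ± 0.14 in Dex against CI, though not without CI replicate 1 (0.52, limma adjusted p = 0.0895), and differed by 0.22 ± 0.14 in TNF (limma adjusted p = 0.311). The NF-kB cofactor Nfkbiz rose by 0.88 ± 0.13 in TNF and the kinase gene Jak2 by 0.90 ± 0.14. The glucocorticoid receptor gene Nr3c1 fell in Dex against CI (-0.69 ± 0.10, limma adjusted p = 0.000408). Stat3 differed from CI by 0.005 ± 0.11 in TNF and -0.06 ± 0.11 in Dex, and its inhibitor Socs3 by 0.14 ± 0.11 and 0.03 ± 0.11, with no call.

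Of 8 receptors and partners of the acute phase proteins, 3 rose and 0 fell in TNF against CI (3.00% and 5.23% of all genes). In Dex against CI 1 rose and 1 fell (3.33% and 5.67%), and in TNF against Dex 3 were higher and 0 lower (4.14% and 3.16%). Tlr2 rose by 2.02 ± 0.21 in TNF against CI (limma adjusted p = 7.28e-05) and Cd14, the co-receptor that takes lipopolysaccharide from Lbp, by 1.44 ± 0.13 in TNF (limma adjusted p = 2.35e-05) and 0.98 ± 0.13 in Dex (limma adjusted p = 0.000218). Tlr4 differed by -0.03 ± 0.14 in TNF and -0.12 ± 0.14 in Dex and was not called, but its probe set with the largest SD was called lower in Dex (-0.64, limma adjusted p = 0.0341). Lrp1, the receptor that clears haem bound to hemopexin, rose by 0.98 ± 0.09 in TNF (limma adjusted p = 2.39e-05) and differed by 0.29 ± 0.09 in Dex, where the mean of its probe sets (0.74, limma adjusted p = 0.00402) and the one of largest SD (1.19, limma adjusted p = 0.00276) were called. In TNF against Dex Lrp1 was called higher by 0.69 ± 0.08. This call was lost on size with the mean of its probe sets (0.45). It was also lost with the one of largest SD (0.22, limma adjusted p = 0.496). Slc22a17, a receptor described for lipocalin-2, differed by 0.01 ± 0.08 in TNF and in Dex.

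**Figure D4:**
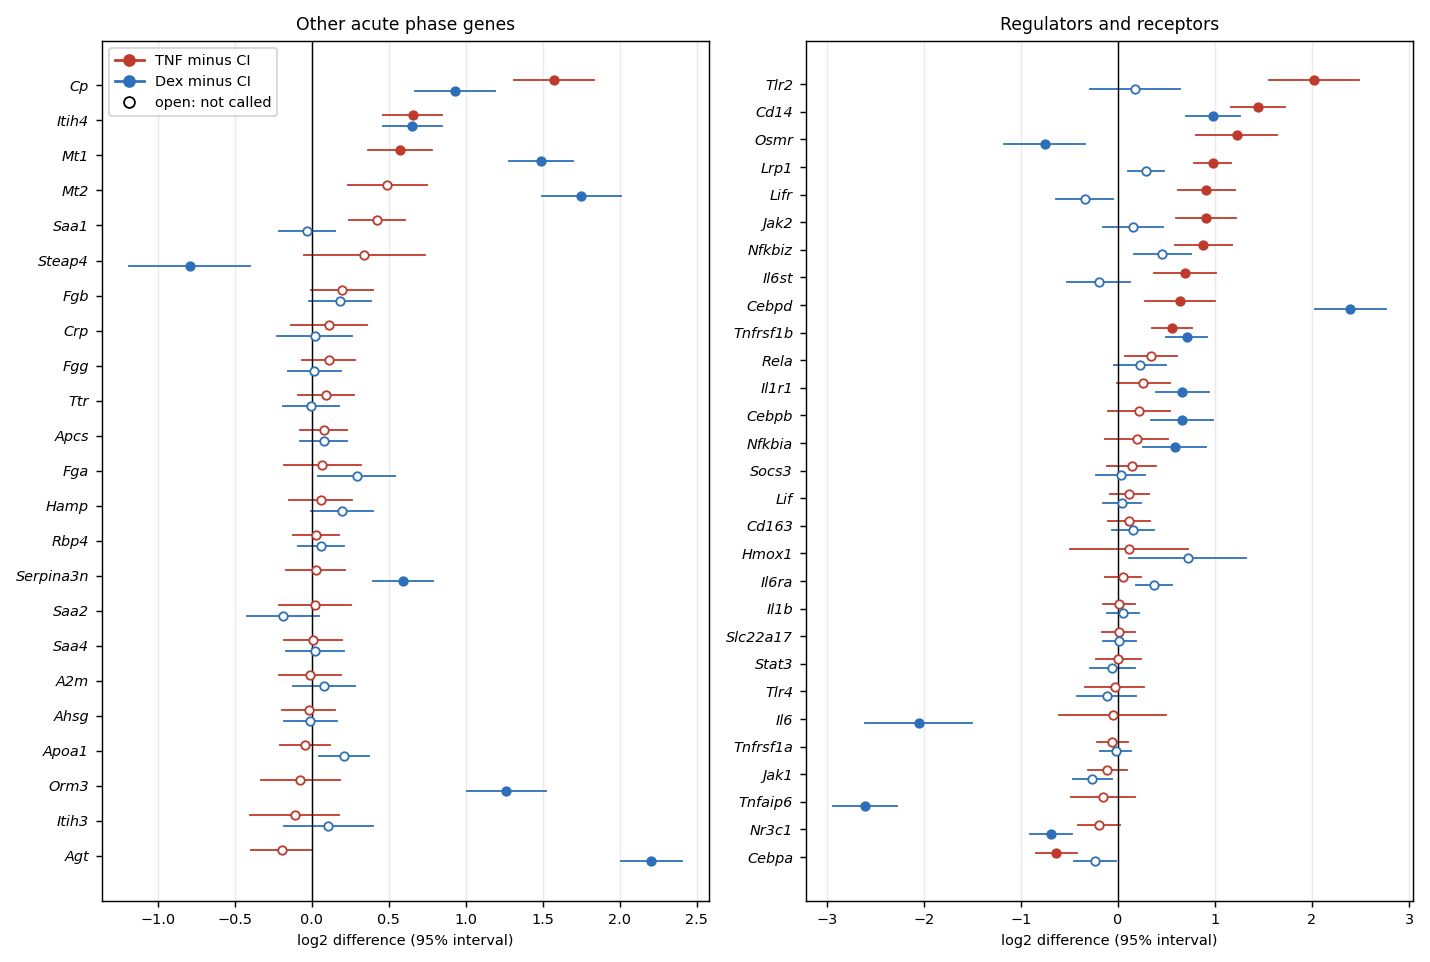
Log2 differences (horizontal axis, with 95% intervals of the fit) of 23 further acute phase genes (left) and 29 regulators and receptors (right), for TNF minus CI (red) and Dex minus CI (blue), with filled points called and open points not called. Among the acute phase genes Agt, Mt2, Mt1 and Orm3 lay furthest to the right in Dex, and among the regulators Tlr2 and Cd14 did so in TNF and Cebpd in Dex.

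Because macrophages, neutrophils and hepatocytes also make many of these proteins, their markers were read as well. Of 8 macrophage and leukocyte markers, Lyz2 alone was called, higher in TNF by 0.55 ± 0.07 over CI and by 0.95 ± 0.06 over Dex. Over all genes 3.00% and 4.14% were called higher in these comparisons. Csf1r passed the p threshold but not that of size, higher in TNF by 0.40 ± 0.07 over CI and by 0.225 ± 0.06 over Dex. The same held in Dex against CI for Cd68 (0.31 ± 0.10), Laptm5 (-0.32 ± 0.10) and Lyz2 (-0.40 ± 0.07), in both directions. The sum of the 8 was 3117 to 3270 in TNF, 2109 to 2138 in Dex and 2434 to 2486 in CI. Lyz2 alone averaged 2103 in TNF, 1091 in Dex and 1437 in CI, and the sum mostly followed it. Ptprc, the common leukocyte antigen, averaged 4.66 in TNF, 4.63 in Dex and 4.60 in CI, with no call. Of 5 neutrophil markers S100a8 alone was called, lower in Dex than in CI (-1.50 ± 0.28) and higher in TNF than in Dex (1.58 ± 0.25). Over all genes 5.67% were called lower and 4.14% higher in these comparisons. The sum of the 5 was 1024 to 1252 in TNF, 807.3 to 879.6 in Dex and 1036 to 1091 in CI. S100a8 alone averaged 465 in TNF, 155 in Dex and 438.8 in CI, and the sum largely followed it. Of 5 hepatocyte markers 0 were called by limma, and 0 had an unadjusted p under 0.05 in any comparison, with sums of 515.1 to 581.3 in TNF, 518.1 to 534.5 in Dex and 469.4 to 567.8 in CI. The part of other cell types in the acute phase values was not tested.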

How the data were processed

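Total RNA from the 3T3-L1 cells was purified with a Qiagen kit, converted to biotin-labelled cRNA and hybridised to 8 Affymetrix Mouse Genome arrays. The deposited values were probe set intensities on a linear scale, and the authors' methods state that arrays of this type were background-corrected and normalized by RMA (affyPLM). Whether the linear values are RMA output with the logarithm removed is not given in the sources used here. The planned test assumed log2 values, so log2 was taken with no pseudocount. Arrays have no read depth, and their number limits the precision. Models were taken from the sample titles.

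Of 45101 probe sets, 34958 had 1 gene symbol in GEO's platform annotation, 932 several and 9211 none, giving 18194 genes, 9012 of them with several probe sets. The 3 models were fitted together with limma 3.58.1 (lmFit and eBayes, two-sided) in R 4.3.3, with 5 residual degrees of freedom and Benjamini-Hochberg adjustment over all genes. The fit was tested on simulated data. Second probe sets of Lbp and Ptx3 were fitted with every probe set as a feature. Motifs and figures were made with Python 3.11.15.

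The 8 genes and the lists were chosen with earlier results of these data known. Named were all 8, fixed genes of each list and up to 6 called genes per list and comparison with the largest difference, and for likeness up to 3 genes per member. Saa4, Orm3 in TNF, individual cell type markers and the genes that fall in the hepatic acute phase were named outside this rule, with their values known. Serpina3c, Serpina3g, Serpina1a, C3, Trf and Nfkb1 were among the listed genes not analysed here. Alternatives covered scaling, filtering, probe set choice, model terms, thresholds, pseudocount and leaving out each array.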

Additional observations from a re-analysis of the deposited data

How the results depend on the processing

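Under 22 alternatives, 8 of which left out 1 array each, the values of the 8 acute phase genes never reversed a call. Of 528 values 521 kept their side of the thresholds, and the 7 others were the Ptx3 calls described above, Lbp in Dex against CI, which passed when adjusted p alone was used, and Orm1 and Orm2, which lost calls when a difference over 1 was asked for. Some alternatives left the difference itself unchanged, such as other thresholds or leaving out an array of the model not compared. The 528 values are therefore not separate checks. Leaving out 1 array gave 7 to 8 acute phase calls in TNF against CI, 4 to 5 in Dex against CI and 5 in TNF against Dex. With a difference over 1 the calls were 3 acute phase genes in Dex against CI, 4, 1 and 4 of the further acute phase genes in Dex against CI, TNF against CI and TNF against Dex, and 3 regulators and receptors in both Dex against CI and TNF against CI. With adjusted p alone 5 further acute phase genes were called in TNF against CI and 16 regulators and receptors in TNF against Dex. The further acute phase genes called in TNF against CI numbered 2 to 5 when 1 array was left out, with 5 without TNF replicate 2, when Mt2 and Steap4 were added. Over all genes TNF against CI had 545 higher and 951 lower calls, 1768 and 2413 with adjusted p alone and 127 and 131 with a difference over 1. In Dex against CI these were 605 and 1032, 1675 and 2251, and 135 and 288, and in TNF against Dex 753 and 575, 1839 and 1962, and 228 and 114.

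Whether arrays of the same replicate number were paired could not be decided. Correlations of deviations from the model means were -0.095 to 0.334 over 7 pairs of the same number. They were -0.384 to 0.284 over 14 pairs of different numbers. The deviations of the 2 CI arrays mirror each other, so pairs with CI cannot tell the 2 kinds apart. Between TNF and Dex the same numbers gave 0.334, -0.095 and 0.213. With the replicate number as a block the acute phase calls were 8 in TNF against CI, 5 in Dex against CI and 5 in TNF against Dex, and over all genes TNF against CI had 516 higher and 1018 lower. Taking the mean of all probe sets of a gene lowered further list genes below the size threshold, among them Cebpd (0.33) and Nfkbiz (0.41) in TNF against CI and Osmr (-0.45) in Dex against CI. It also added calls, Il6ra and Lrp1 in Dex against CI and Il6ra (-0.65), Cebpb (-0.67) and Nfkbia (-0.55) in TNF against Dex. With the probe set of largest SD the regulators and receptors called in Dex against CI were 14, against 10, with Il6ra, Lrp1, Tlr4 and Lifr (-0.89) added, while Lifr fell below the size threshold in TNF against CI (0.49). Cebpa fell in TNF against CI by 0.49 with the beta-actin covariate, below the threshold. The causes were not tested. CI had 2 arrays, so each CI mean rests on 1 array when the other is left out. No background measure was used, so low intensities cannot be called absent.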
